A study of Homo sapiens with 30 samples.

Results

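The genes described here are 37 interferon-stimulated genes of the type I interferon response, taken by symbol from a deposited table of 60675 gene entries, in which all 37 were found. They were measured by RNA sequencing in 30 libraries of SW1783, a human astrocytoma cell line. Cells had received ethanol extracts of herbal mixtures for 24 h at 20, 100 or 500 µg/mL, or DMSO as the vehicle. Each concentration was covered by 3 libraries for Soshiho-tang and for Yijin-tang, by 2 for Okbyeongpung-san and by 1 for Soyo-san, and the vehicle by 3. No group carried a genetic change, and all groups are cultures of 1 line. The labels and the series description name different DMSO concentrations for the vehicle.

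Type I interferons are secreted proteins that warn cells of infection. Their receptor, IFNAR1 with IFNAR2, activates the kinases JAK1 and TYK2, which phosphorylate transcription factors that include STAT2. STAT2 acts with IRF9 in a complex named ISGF3, which binds the interferon-stimulated response element (ISRE) in promoters and switches on antiviral genes. STAT2 and IRF9 are themselves interferon-stimulated, and unphosphorylated forms of the complex can hold such genes at a low constant level. Astrocytes and cells derived from them carry the receptor and respond to interferon.

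Levels are TMM-scaled CPM (counts relative to library size), and they are compared between libraries of 1 gene only, since CPM is not scaled by gene length. Changes are on the log2 scale, each with a standard error (SE), from edgeR's quasi-likelihood test. A gene is called where the Benjamini-Hochberg adjusted p over all genes tested is under 0.05. All 37 genes passed the filter on low counts in every fit, so none was too low to test. RSAD2 and OAS1 were the lowest, with means of 0.399 and 0.783 CPM over the 30 libraries. The labels number the replicates without saying whether they came from separate cultures, so a p-value measures the spread between these samples, which may be technical. In whole cultures, fewer expressing cells and less RNA per cell cannot be told apart.

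Library totals ran from 23.9 to 33.1 M estimated counts with a median of 27.4 M. The vehicle libraries were named in a series of their own, and their mitochondrial share was 10.5% to 10.7%, against 5.68% to 10.6% in the extract libraries. Soshiho-tang and Yijin-tang libraries shared the series named 15, and Okbyeongpung-san and Soyo-san the series named 14. Within Okbyeongpung-san, replicate 2 carried batch E in its title and replicate 3 batch D, and each batch held every concentration. Yijin-tang replicate 3 at 500 µg/mL stood apart from the others of its group, with a chi-square per degree of freedom of 39.47 and 23.52 against them, where these gave 4.3, and with a mitochondrial share of 10.61% against 6.7% and 7.35%. Soshiho-tang replicate 3 at 20 µg/mL gave 14.27 and 25.75 against its group, where the others gave 5.62. Its mitochondrial share was 9.03%, against 6.8% and 6.37%. The 2 Okbyeongpung-san libraries of a dose also differed widely, with 25.54 at 500, 17.74 at 100 and 19.96 at 20 µg/mL. With 2 libraries a dose, neither can be said to stand apart. Contrasts of 500 with 20 µg/mL of 1 extract stay within 1 library series, whereas contrasts with the vehicle cross series, and there the extract and the series cannot be told apart. Of the glial markers, GFAP reached at most 0.205 CPM, S100B at most 0.252 CPM and AQP4 at most 0.0701 CPM, so these astrocyte markers were near 0. Others on the list were not: SLC1A3, also an astrocyte marker, lay between 18.1 and 35.1 CPM and NES between 4.68 and 16.3 CPM. VIM, which astrocytoma cells and many other cells make, lay between 3752 and 5586 CPM.

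The promoter sequences are shown because the ISRE is what ties these genes to ISGF3. RefSeq promoter windows (GRCh38.p14, 250 bases before to 50 after an annotated start) were at hand for 29 of the 37 genes. They were not at hand for USP18, MX2, OASL, IFITM2, OAS2, IFIT2, IRF7 and TRIM22. The core motif searched was GAAANNGAAA on both strands, and successive matches may overlap. It was present in a window of 21 of the 29 genes, whereas 3.57% of all 35116 windows and 4.38% of all 27305 genes in the table held it. The stretches below are read along each gene's strand, 5′ to 3′, with matches in capitals, from genes that changed with dose of Soshiho-tang or Okbyeongpung-san. A match in capitals that begins with TTTC lies on the opposite strand.
IFIT3: gttccatcagTTTCACTTTCctttcccctt
ISG15: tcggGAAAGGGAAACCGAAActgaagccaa
IFI6: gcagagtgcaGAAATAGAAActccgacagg
MX1: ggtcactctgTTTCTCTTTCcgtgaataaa
IFI44: gggcacactgagTTTCAGTTTCctttctct
IFIT1: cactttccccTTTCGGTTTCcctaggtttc
OAS3: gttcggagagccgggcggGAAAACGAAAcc
PARP9: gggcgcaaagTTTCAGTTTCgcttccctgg

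The IFIT3 stretch is chr10:89332468-89332497 on the plus strand, and the ISG15 stretch, where 2 matches overlap, is chr1:1013380-1013409 on the plus strand. The IFI6 stretch is chr1:27672266-27672295 on the minus strand, and the MX1 stretch is chr21:41431844-41431873 on the plus strand. The IFI44 stretch is chr1:78649759-78649788 on the plus strand, and the IFIT1 stretch is chr10:89392510-89392539 on the plus strand. The OAS3 stretch is chr12:112938444-112938473 on the plus strand, and the PARP9 stretch is chr3:122564322-122564351 on the minus strand. In GENCODE v29, the matches of IFIT3, MX1 and OAS3 fall in an exon of another transcript of the same gene, and that of PARP9 in an exon of its divergent neighbour DTX3L. The motif does not divide the genes by direction. Genes that rose (MX1, IFI44) and genes that fell (IFIT1, OAS3, PARP9) with Okbyeongpung-san both hold the motif. Among the 14 genes that rose with Soshiho-tang, 8 of 13 with a window held it, and among the 20 called with neither of these extracts, 10 of 13 did. STAT2, IRF9, SAMD9L, IFI35 and XAF1 rose with Soshiho-tang and have no match in their windows, which says only that these letters are not there.

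**Figure D1:**
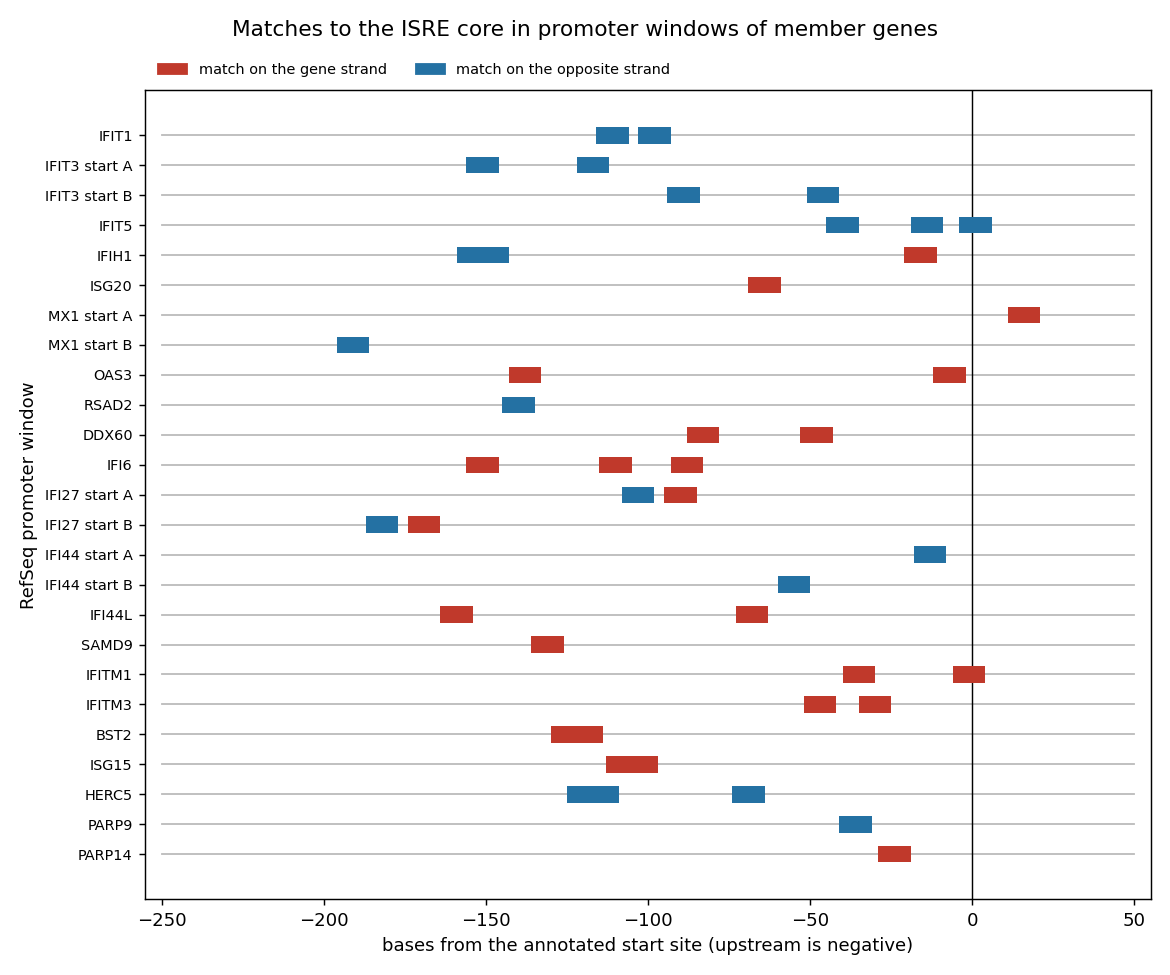
Position of each ISRE core match (bar, 10 bases long) in RefSeq promoter windows of the 37 genes, in bases from the annotated start on the horizontal axis. Each line is 1 window of a gene, start A and start B are alternative starts, colour gives the strand, and windows without a match are not drawn; 21 genes hold a match, most of them upstream of the start.

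Among the 3 extracts tested from 20 to 500 µg/mL, Soshiho-tang had the most genes called higher. From 20 to 500 µg/mL, 14 of the 37 genes rose (37.8%) and 0 fell, where 14.6% of all 16872 genes tested rose, 14.2% fell and 28.9% were called in either direction. The median log2 change of the 37 was 0.23 and that of all genes 0.01, and 30 of the 37 changes were above 0. In 21 of the 37 genes, all 3 libraries at 500 µg/mL lay above all 3 at 20 µg/mL, as they did for 22.3% of all genes tested. By role, 6 of 14 RNA-binding and antiviral effectors rose, as did 2 of 6 signalling genes, 1 of 4 genes of the ISG15 pathway, 5 of 9 other interferon-induced genes and 0 of 4 membrane restriction factors.

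Of the ISGF3 subunits, STAT2 (chr12:56341597-56360155), the transducer specific to type I and III interferons, had 30, 32.1 and 30.2 CPM at 20 µg/mL and 39.2, 44.2 and 40.9 CPM at 500 µg/mL. The groups did not overlap, and the log2 change was 0.43 (SE 0.07, edgeR adjusted p = 5.04e-05). IRF9 (chr14:24161053-24166565), the DNA-binding subunit, had 15.3, 14.4 and 16.9 CPM at 20 µg/mL and 21.5, 21.4 and 20.1 CPM at 500 µg/mL. Its groups did not overlap either, with a log2 change of 0.44 (SE 0.09, edgeR adjusted p = 0.000721). IRF9 overlaps a second annotated gene on the same strand, so its reads are not certain to be its own. Of the interferon regulatory factors, IRF1 differed by 0.00 (SE 0.05, edgeR adjusted p = 0.976) and IRF7, which amplifies interferon production, by 0.09 (SE 0.13, edgeR adjusted p = 0.664). The vehicle libraries held 36.9, 37.7 and 37.4 CPM of STAT2, between the levels at 20 and at 500 µg/mL. STAT2 was thus lower at 20 µg/mL than in vehicle (log2 -0.28, SE 0.07, edgeR adjusted p = 0.00676), and its level at 500 µg/mL was not called against vehicle (log2 0.15, SE 0.07, edgeR adjusted p = 0.085).

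Among the effectors, the IFIT genes, which encode RNA-binding proteins that block translation of viral transcripts, divided. IFIT2 (chr10:89283694-89309276) had 7.04, 10.4 and 9.82 CPM at 20 µg/mL and 17.1, 15.2 and 16.6 CPM at 500 µg/mL, with a log2 change of 0.84 (SE 0.16, edgeR adjusted p = 0.00029). IFIT3 (chr10:89327894-89340971), a partner of IFIT1 and IFIT2 in 1 complex, had 22.5, 25.7 and 25.6 CPM at 20 µg/mL and 36.4, 39.1 and 37.6 CPM at 500 µg/mL, with a log2 change of 0.61 (SE 0.11, edgeR adjusted p = 0.000165). Neither gene's groups overlapped, and at 500 µg/mL all 3 libraries of each exceeded every other library of the 30. IFIT1 (chr10:89392546-89406486), 51.6 kb from IFIT3, was not called, with 11.7, 13.2 and 12.7 CPM at 20 µg/mL and 12.1, 10.4 and 12 CPM at 500 µg/mL (log2 -0.12, SE 0.13, edgeR adjusted p = 0.529). IFIT1, IFIT2 and IFIT3 lie on the opposite strand to annotated transcripts of LIPA, and the strand setting of the counting is not given in the sources used here. LIPA itself had a mean of 112.6 CPM at 500 µg/mL and of 114.5 CPM at 20 µg/mL, a log2 difference of -0.02 (SE 0.04, edgeR adjusted p = 0.735).

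MX1 (chr21:41420304-41459214), a dynamin-like GTPase that traps viral nucleocapsids, had 9.63, 10.3 and 11.2 CPM at 20 µg/mL and 14.1, 15.4 and 18.1 CPM at 500 µg/mL. The groups did not overlap, and the log2 change was 0.61 (SE 0.12, edgeR adjusted p = 0.000664). DDX60, a helicase linked to RNA sensing, rose by 0.29 (SE 0.09, edgeR adjusted p = 0.0156), and its groups overlapped, with 15.4 to 19.1 CPM and 18.8 to 22.9 CPM. IFIT5 rose by 0.18 (SE 0.06, edgeR adjusted p = 0.0206). RSAD2, which encodes viperin and falls outside the rule for named genes because of its low level, was chosen after its values were seen: it had 0.223 to 0.418 CPM at 20 µg/mL and 0.615 to 1.05 CPM at 500 µg/mL (log2 1.32, SE 0.36, edgeR adjusted p = 0.00777). The genes OAS1, OAS2 and OAS3, which make the oligoadenylates that activate RNase L, differed by 0.18, 0.16 and 0.06 and were not called.

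ISG15 (chr1:1001138-1014540), the ubiquitin-like modifier, had 20.1, 18.8 and 18.3 CPM at 20 µg/mL and 25, 21.9 and 24.2 CPM at 500 µg/mL, a log2 change of 0.31 (SE 0.09, edgeR adjusted p = 0.015) without overlap. Its ligase HERC5 differed by 0.46 (SE 0.20, edgeR adjusted p = 0.0863) and USP18, which removes the modifier, by -0.01, and neither was called. Of the other induced genes, IFI6 rose by 0.34, IFI35 by 0.32, XAF1 by 0.31, SAMD9L by 0.25 and IFI44 by 0.20 on the log2 scale, with no overlap between the groups in any of the 5. The entry-blocking membrane proteins IFITM1, IFITM2 and IFITM3 differed by -0.08, -0.22 and -0.16, and BST2, the tetherin that holds budding virions, by 0.00; none was called. The IFITM genes are near-identical copies and IFITM1 overlaps IFITM2, so their split of reads is uncertain. In all, 19 of the 37 genes overlap another annotated gene, 10 of them a protein-coding gene. The 23 genes not called ranged from -0.22 to 0.48, with ISG20, an exonuclease (0.48, edgeR adjusted p = 0.0908), OASL, an RNA-binding relative of the OAS proteins (0.42, edgeR adjusted p = 0.0502), and IFI27 (0.37, edgeR adjusted p = 0.0659) at the upper end.

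**Figure D2:**
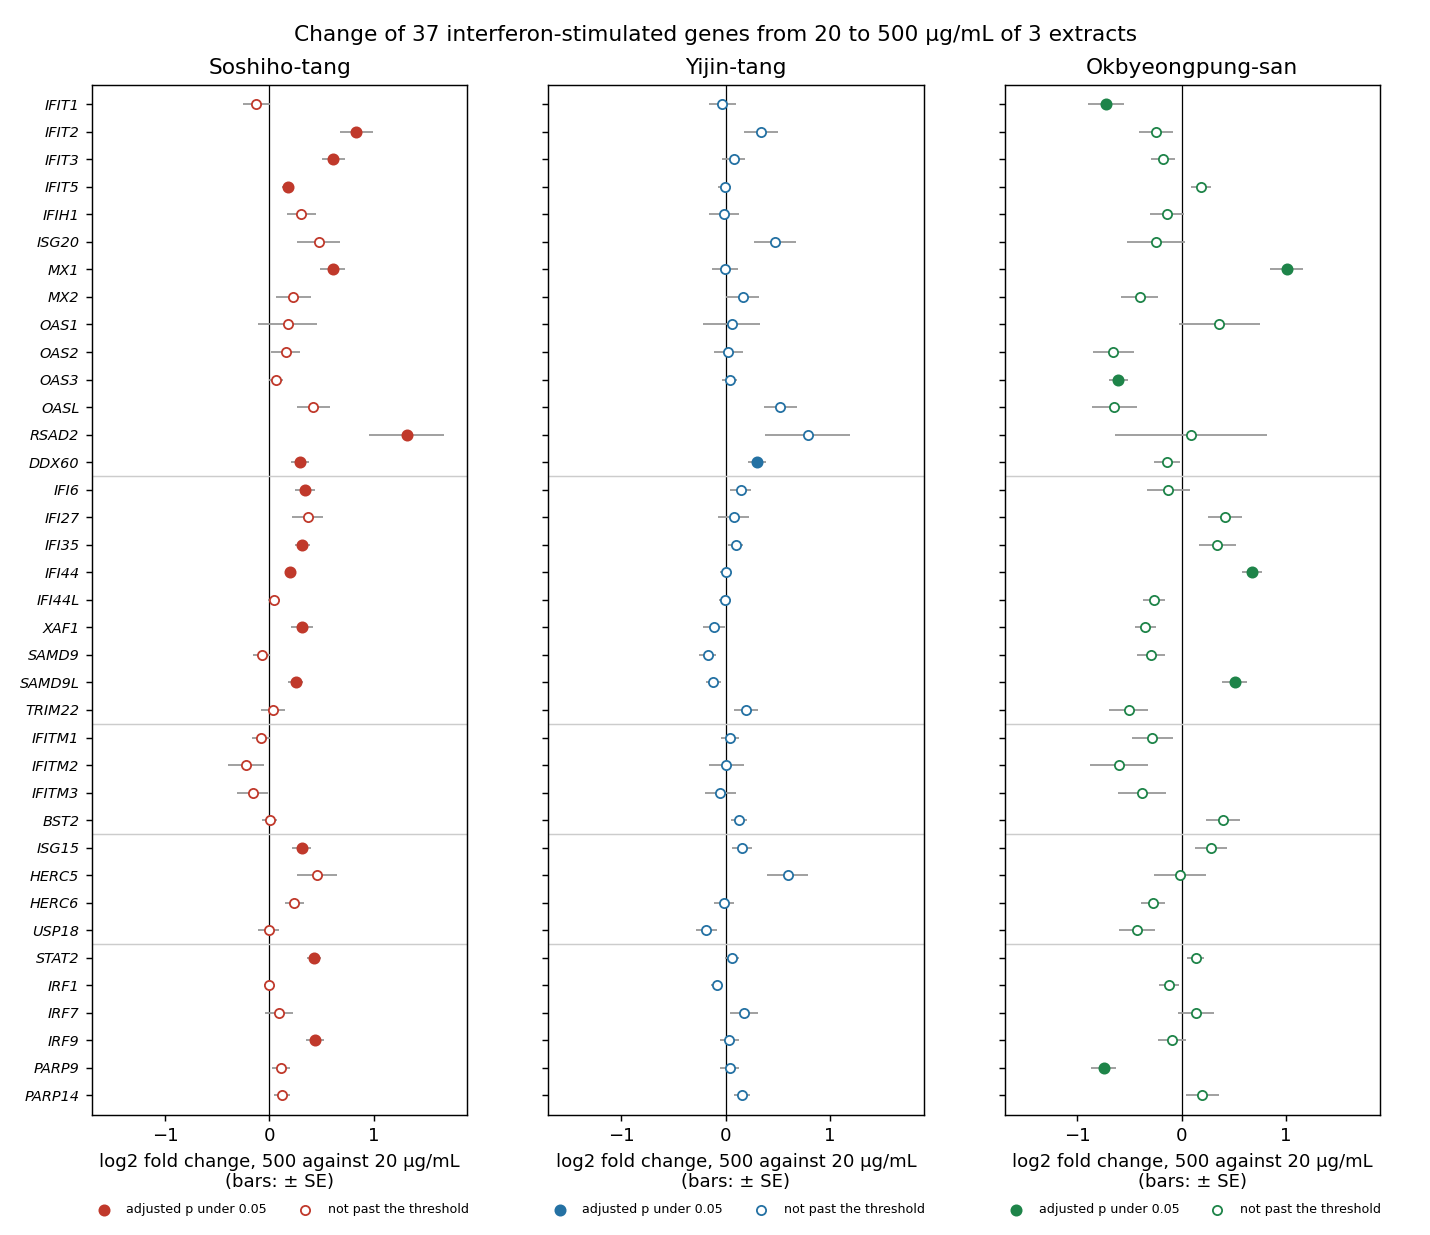
log2 fold change from 20 to 500 µg/mL (horizontal axis, bars ± SE) of each of the 37 genes, grouped by role, for Soshiho-tang, Yijin-tang and Okbyeongpung-san. Filled points passed an adjusted p of 0.05 in edgeR: 14 on the right of 0 for Soshiho-tang, 1 for Yijin-tang, and 3 on each side for Okbyeongpung-san.

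Of the 14 genes that rose, 8 kept their call in all 11 alternative settings: IFIT2, IFIT3, MX1, IRF9, STAT2, IFI35, SAMD9L and IFI44. The other 6 lost their call without 1 or more of the libraries, and IFIT5 also without the count filter (edgeR adjusted p = 0.0788). Without Soshiho-tang replicate 2 at 500 µg/mL, 10 genes were called, and the edgeR adjusted p of RSAD2 was 0.0598, of DDX60 0.096, of XAF1 0.104 and of IFIT5 0.0747. Without replicate 1 at 500 µg/mL it was 0.0717 for ISG15 and 0.0835 for XAF1, and without replicate 3 it was 0.0772 for IFI6, 0.0796 for IFIT5 and 0.058 for DDX60. Without replicate 1 at 20 µg/mL it was 0.0544 for IFI6, 0.118 for XAF1 and 0.0532 for IFIT5. Without replicate 2 at 20 µg/mL it was 0.0623 for IFI6 and 0.0883 for XAF1. Without replicate 3 at 20 µg/mL, which stood apart, 12 genes were called, and it was 0.0559 for ISG15, 0.0639 for IFIT5 and 0.0852 for DDX60.

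From 20 to 100 µg/mL of Soshiho-tang, 0 of the 37 genes were called by edgeR, 0 by DESeq2 and 0 at an unadjusted p under 0.05, where 0.00593% of all genes rose, 0.0652% fell and 0.0711% were called in either direction. IFIT2 had 9.23 to 10.9 CPM, IFIT3 22.3 to 28.6 CPM, MX1 10.8 to 11 CPM and STAT2 29.3 to 32.4 CPM at 100 µg/mL. In these 4 genes the 100 µg/mL libraries stayed below all 3 at 500 µg/mL. Other genes that rose had intermediate means at 100 µg/mL, with 15.5, 17.3 and 21 CPM of IRF9 at the 3 doses and 20.7, 22.6 and 26.2 CPM of IFI6. For IFI6 the groups at 100 and 500 µg/mL overlapped, and 500 was not tested against 100 µg/mL.

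**Figure D3:**
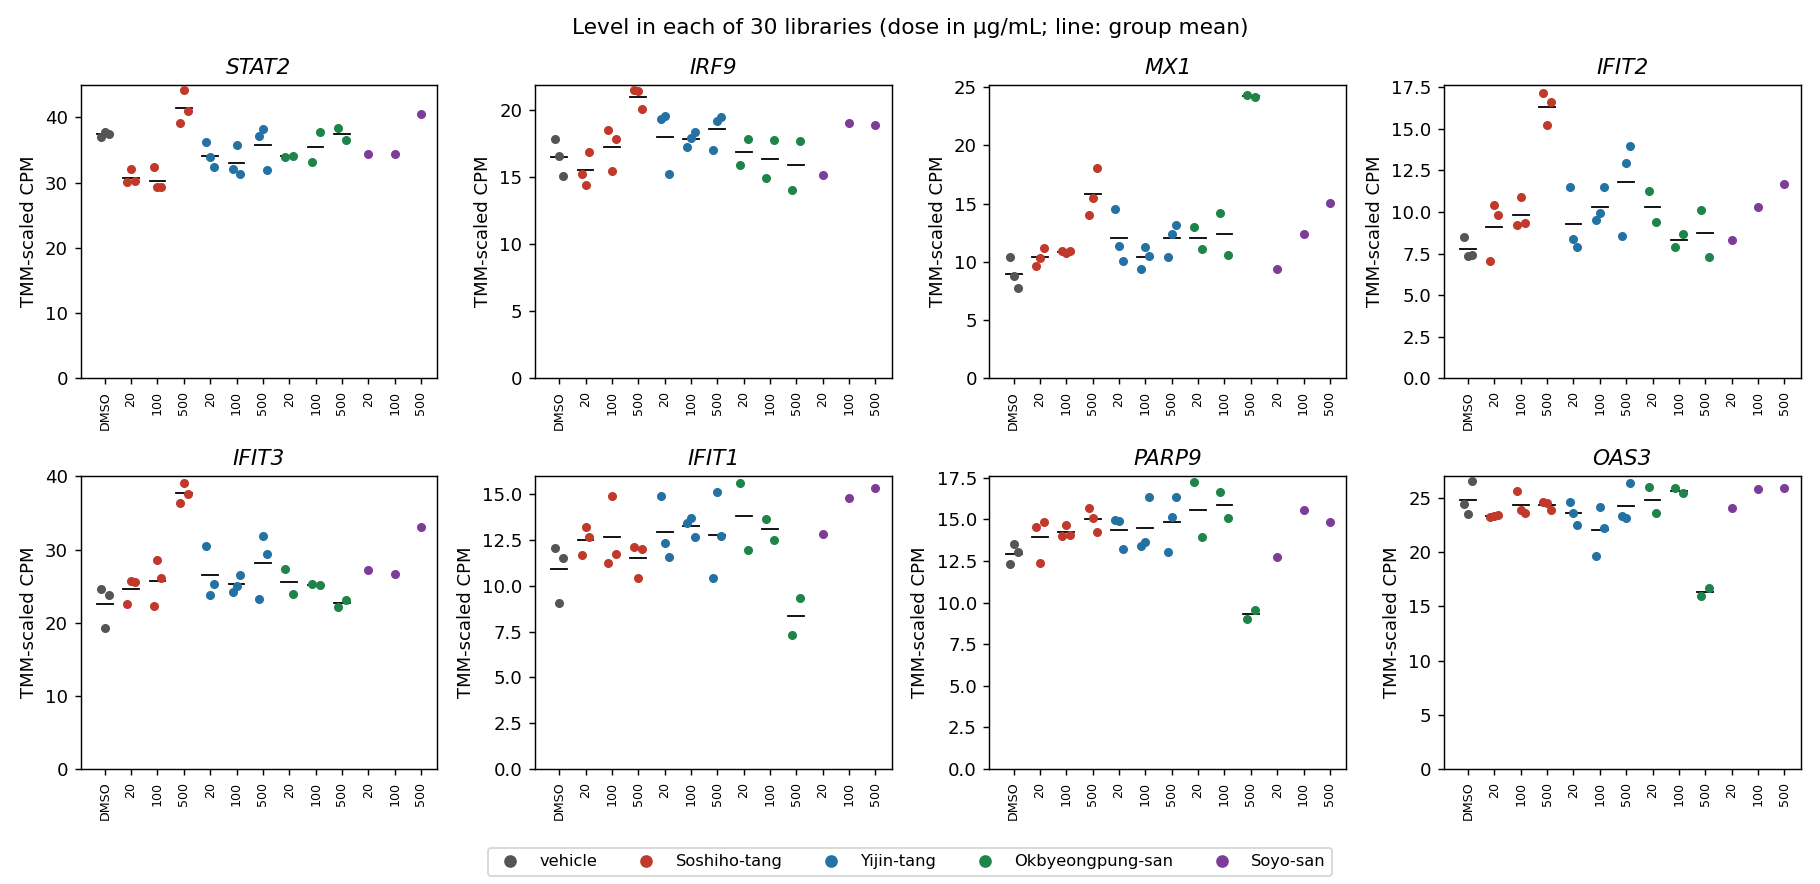
TMM-scaled CPM (vertical axis, from 0) of 8 genes in each of the 30 libraries, by extract and dose, with a line at each group mean. STAT2, IRF9, IFIT2 and IFIT3 are high in the 3 libraries of Soshiho-tang at 500 µg/mL, MX1 is highest and PARP9 and OAS3 are lowest in the 2 libraries of Okbyeongpung-san at 500 µg/mL, whose IFIT1 is at 7.34 and 9.34 CPM.

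Yijin-tang gave little of this change. From 20 to 500 µg/mL, 1 of the 37 genes rose (2.7%), where 2.7% of all genes tested rose, 2.94% fell and 5.64% were called in either direction. The median log2 change of the 37 was 0.04. The gene was DDX60, with 18.8, 17.3 and 17.5 CPM at 20 µg/mL and 21.7, 23.2 and 21.4 CPM at 500 µg/mL (log2 0.30, SE 0.09, edgeR adjusted p = 0.0473). The groups did not overlap, but the call held in 4 of 11 alternatives and was lost when any 1 of the 6 libraries was left out (edgeR adjusted p from 0.0511 to 0.17). STAT2 differed by 0.07 (SE 0.07, edgeR adjusted p = 0.683), IRF9 by 0.04, MX1 by 0.00 and IFIT1 by -0.03. ISG15 differed by 0.16, IRF7 by 0.18 and IRF1 by -0.08, and none of these was called. The genes not called reached 0.79 in RSAD2 and 0.53 in OASL (edgeR adjusted p = 0.0531). Without Yijin-tang replicate 3 at 500 µg/mL, 0 of the 37 genes were called by edgeR from 20 to 500 µg/mL. From 20 to 100 µg/mL, 0 genes were called by edgeR or by DESeq2 and 1 had an unadjusted p under 0.05, where 0% of all genes rose and 0.00593% fell.

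The difference between the dose changes was tested directly. The change from 20 to 500 µg/mL was larger with Soshiho-tang than with Yijin-tang for 5 of the 37 genes (13.5%) and smaller for 0, where 6.63% of all genes were larger, 6.99% smaller and 13.6% called in either direction. The difference in log2 change was 0.61 for MX1 (SE 0.18, edgeR adjusted p = 0.0219), 0.54 for IFIT3 (SE 0.16, edgeR adjusted p = 0.0236) and 0.40 for IRF9 (SE 0.13, edgeR adjusted p = 0.0392). It was 0.37 for SAMD9L (SE 0.10, edgeR adjusted p = 0.0118) and 0.36 for STAT2 (SE 0.10, edgeR adjusted p = 0.014). The count fell to 2 without replicate 1 of Soshiho-tang at 20 µg/mL, of Yijin-tang at 500 µg/mL or of Yijin-tang at 20 µg/mL, leaving STAT2 and SAMD9L. Without replicate 2 of Soshiho-tang at 500 µg/mL it also fell to 2, MX1 and SAMD9L. Without replicate 3 of Yijin-tang at 500 µg/mL 6 genes were called, the 5 above among them. SAMD9L was called in all 12 of these leave-one-out fits.

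At 500 µg/mL, 9 of the 37 genes were higher with Soshiho-tang than with Yijin-tang and 3 were lower, where 25.2% of all genes were called, 12.5% higher and 12.8% lower. IFIT2 was higher by 0.48, IFIT3 by 0.43, SAMD9L by 0.40, MX1 by 0.40 and XAF1 by 0.39 on the log2 scale. STAT2 was higher by 0.21 (SE 0.07, edgeR adjusted p = 0.0239), with 37.1, 38.2 and 31.9 CPM in the Yijin-tang libraries, all below those of Soshiho-tang. The remaining higher genes were IFIT5, IFI35 and IFI44, by 0.17 to 0.22. IFITM2 was lower by -0.57 (SE 0.17, edgeR adjusted p = 0.0153), with an edgeR adjusted p of 0.115 without Yijin-tang replicate 3 and of 0.085 without Soshiho-tang replicate 3. IFITM1 was lower by -0.49 (SE 0.09, edgeR adjusted p = 0.000119) and BST2 by -0.25 (SE 0.07, edgeR adjusted p = 0.0157). IRF9 differed by 0.18, ISG15 by -0.07, IRF1 by 0.04, IRF7 by -0.15 and IFIT1 by -0.14, none of them called. Of the 12 genes, 4 kept their call in all 11 alternatives (IFIT3, SAMD9L, IFIT5 and IFITM1), and 7 genes were called without replicate 3 of Soshiho-tang at 500 µg/mL. Without replicate 1 or replicate 3 of Yijin-tang at 500 µg/mL 8 genes were called.

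Fewer calls separated these extracts at the lower doses. At 100 µg/mL 0 of the 37 genes were called by edgeR and by DESeq2 and 7 had an unadjusted p under 0.05, where 0.273% of all genes were higher with Soshiho-tang, 0.48% lower and 0.753% called. Without replicate 2 of Yijin-tang, SAMD9L was called at that dose. At 20 µg/mL 0 genes were called by edgeR, 1 by DESeq2 and 6 had an unadjusted p under 0.05, where 0.0237% of all genes were higher with Soshiho-tang, 0.107% lower and 0.13% called. The gene called by DESeq2 at 20 µg/mL was IFITM1, which edgeR also called without replicate 3 of Soshiho-tang; it had 20.7, 18.7 and 23.5 CPM with Soshiho-tang and 26.6, 28.4 and 26 CPM with Yijin-tang at that dose. Its 3 Soshiho-tang libraries lay below the 3 of Yijin-tang at 20, at 100 and at 500 µg/mL.

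**Figure D4:**
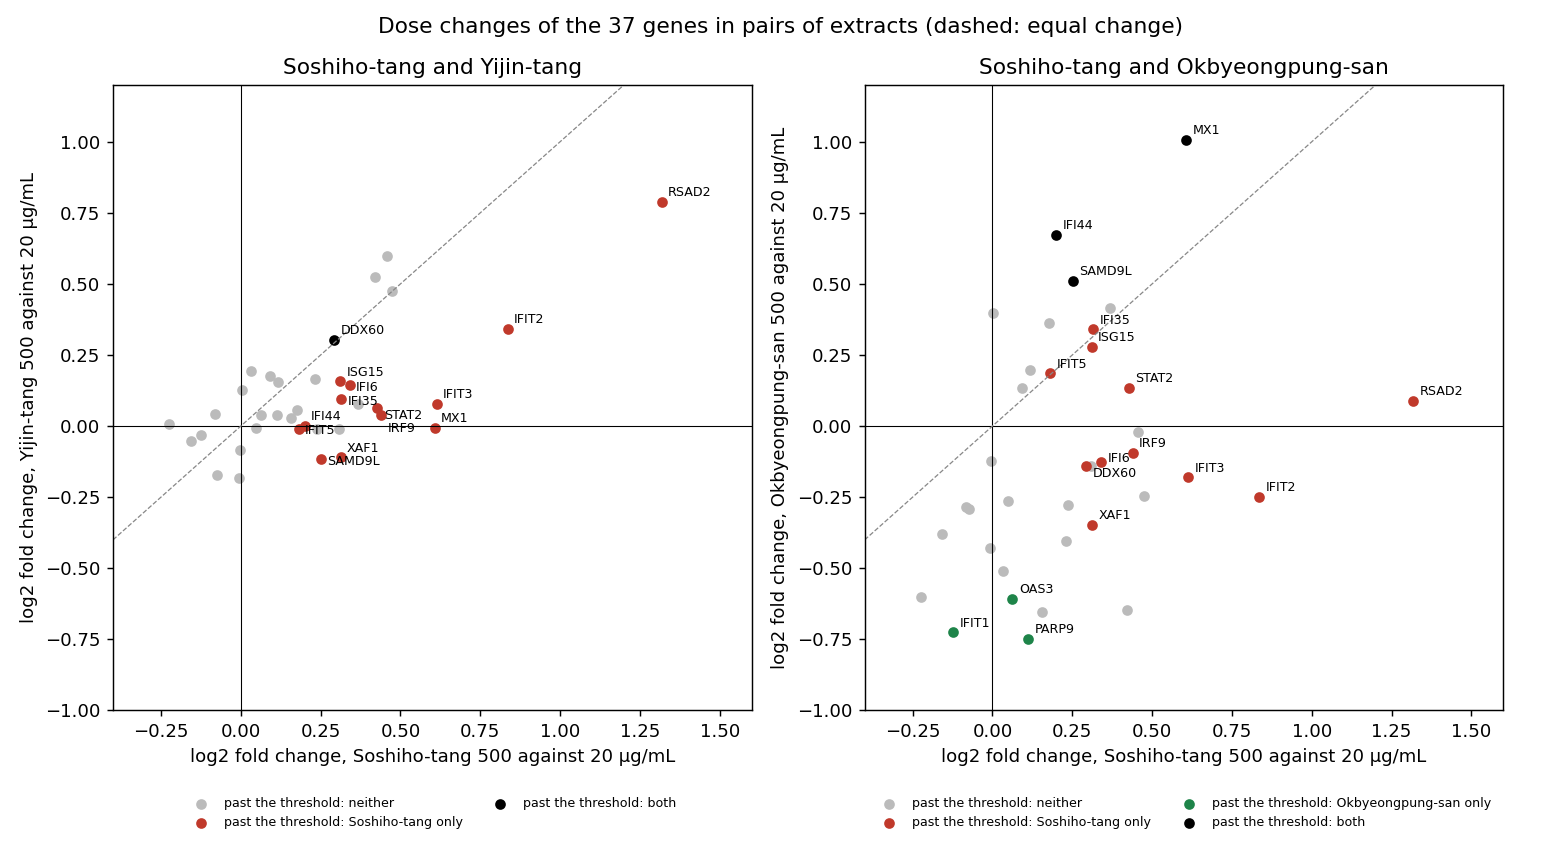
log2 fold change from 20 to 500 µg/mL of the 37 genes with Soshiho-tang (horizontal axis) against Yijin-tang (left) and Okbyeongpung-san (right), with equal change on the dashed line. Red points passed the threshold with Soshiho-tang alone, green with Okbyeongpung-san alone and black with both; MX1, IFI44 and SAMD9L are the 3 black points on the right, and DDX60 the 1 on the left.

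Okbyeongpung-san gave a mixed change. From 20 to 500 µg/mL, 3 of the 37 genes rose and 3 fell, 16.2% in all, where 5.21% of all 16643 genes tested rose, 5.1% fell and 10.3% were called in either direction. The median log2 change of the 37 was -0.14, against 0.00 for all genes. MX1 had 13 and 11.1 CPM at 20 µg/mL and 24.35 and 24.1 CPM at 500 µg/mL, a log2 change of 1.01 (SE 0.16, edgeR adjusted p = 0.00361). Both libraries at 500 µg/mL held more MX1 than any other of the 30. IFI44 (chr1:78649796-78664078) had 41.4 and 42 CPM at 20 µg/mL and 70.4 and 62.9 CPM at 500 µg/mL (log2 0.67, SE 0.09, edgeR adjusted p = 0.00211). SAMD9L (chr7:93130055-93148369), which restricts poxviruses and slows translation, had 32.3 and 25.4 CPM at 20 µg/mL and 44 and 38.3 CPM at 500 µg/mL (log2 0.51, SE 0.12, edgeR adjusted p = 0.0239).

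The genes that fell were PARP9, IFIT1 and OAS3. PARP9 (chr3:122527924-122564577), which works with DTX3L in ADP-ribosylation and ubiquitination, had 17.2 and 13.9 CPM at 20 µg/mL and 9.02 and 9.56 CPM at 500 µg/mL (log2 -0.75, SE 0.12, edgeR adjusted p = 0.00396). DTX3L, which overlaps its start on the opposite strand, differed by -0.10 (SE 0.10, edgeR adjusted p = 0.568). IFIT1 had 15.6 and 12 CPM at 20 µg/mL and 7.34 and 9.34 CPM at 500 µg/mL (log2 -0.73, SE 0.18, edgeR adjusted p = 0.0271). OAS3 (chr12:112938352-112973249) had 26.1 and 23.6 CPM at 20 µg/mL and 15.9 and 16.7 CPM at 500 µg/mL (log2 -0.61, SE 0.09, edgeR adjusted p = 0.00264). In none of the 6 genes did the doses overlap, but 25.3% of all genes tested did not overlap upward and 24.5% downward. Of the 37 genes, 9 did not overlap upward and 14 downward. For PARP9 and OAS3 both libraries at 500 µg/mL were the lowest of all 30, and for IFIT1 a vehicle library with 9.06 CPM lay between them. STAT2 differed by 0.14 (SE 0.08, edgeR adjusted p = 0.319), IRF9 by -0.09, IRF1 by -0.12, IRF7 by 0.14 and ISG15 by 0.28, none of them called. OAS2 (-0.66, edgeR adjusted p = 0.0639) and OASL (-0.65, edgeR adjusted p = 0.0887) were also below 0 without a call.

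Within title batch E the log2 ratio of 500 to 20 µg/mL was 0.91 for MX1, 0.77 for IFI44, 0.45 for SAMD9L, -0.93 for PARP9, -1.09 for IFIT1 and -0.71 for OAS3. Within batch D it was 1.12 for MX1, 0.59 for IFI44, 0.59 for SAMD9L, -0.54 for PARP9, -0.36 for IFIT1 and -0.50 for OAS3. Each batch has 1 library a dose, so these ratios carry no test. Over the 37 genes, 31 had the same sign in both batches, 10 upward and 21 downward, and 6 had opposite signs. Over all genes with both ratios, 69.8% had the same sign, 35.2% upward and 34.6% downward. With the title batch as a block, an alternative added after seeing the data, 15 genes were called, 5 higher and 10 lower, among them all 6 above, where 19.5% of all genes were called. Without replicate 3 at 500 µg/mL 10 genes were called, and without replicate 2 at that dose 4 were, with IFIT1 at an edgeR adjusted p of 0.166 and SAMD9L at 0.142. Without replicate 2 at 20 µg/mL IFIT1 had an edgeR adjusted p of 0.184, and without replicate 3 at that dose SAMD9L had 0.108. From 20 to 100 µg/mL, 0 of the 37 genes were called by edgeR, 0 by DESeq2 and 0 at an unadjusted p under 0.05, where 0% of all genes were called.

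The genes that rose with Okbyeongpung-san each had a close genomic neighbour that was not called. MX1 rose while MX2, 10.9 kb away and an inhibitor of lentiviral nuclear import, differed by -0.40 (SE 0.18, edgeR adjusted p = 0.181). IFI44 rose while IFI44L, 3.6 kb away, differed by -0.27 (SE 0.11, edgeR adjusted p = 0.152). SAMD9L rose while SAMD9, 12 kb away, differed by -0.29 (SE 0.13, edgeR adjusted p = 0.193). Each neighbour was thus below 0 and not called, and whether the neighbours differ from each other was not tested. With Soshiho-tang the same neighbours stood at 0.23 for MX2, 0.05 for IFI44L and -0.07 for SAMD9, also not called. Not every close pair in the list differed in sign with Okbyeongpung-san. OAS2 and OAS3, 5.1 kb apart, were both below 0 in each title batch, as were IFITM1, IFITM2 and IFITM3. OAS1, also 5.1 kb from OAS3 but with a mean of only 0.783 CPM, was above 0 in both batches (0.38 in E and 0.36 in D). IFIT5, 8.1 kb from IFIT1, was above 0 in both as well (0.08 in E and 0.31 in D), where IFIT1 was below 0.

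At 500 µg/mL, 11 of the 37 genes were lower with Okbyeongpung-san than with Soshiho-tang and 4 were higher, where 8.34% of all genes were lower, 9.94% higher and 18.3% called in either direction. IFIT2 was lower by -0.91, OASL by -0.87, IFIT3 by -0.74, PARP9 by -0.69, OAS3 by -0.58, IFIT1 by -0.46 and DDX60 by -0.45. IRF9 was lower by -0.40 (SE 0.11, edgeR adjusted p = 0.0145), and STAT2 differed by -0.14 (SE 0.08, edgeR adjusted p = 0.224). MX1 was higher by 0.62 (SE 0.14, edgeR adjusted p = 0.00215), IFI44 by 0.55 (SE 0.07, edgeR adjusted p = 2.86e-06), SAMD9L by 0.42 and BST2 by 0.38. Without replicate 2 of Okbyeongpung-san at 500 µg/mL 9 genes were called, 2 higher and 7 lower.

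Against Yijin-tang at 500 µg/mL, 9 genes were lower and 4 higher with Okbyeongpung-san, where 10.3% of all genes were lower, 11.4% higher and 21.7% called. MX1 was higher by 1.02 (SE 0.14, edgeR adjusted p = 6.71e-06), SAMD9L by 0.82 and IFI44 by 0.71. OASL was lower by -1.10, IFITM2 by -0.85, PARP9 by -0.67, IFIT1 by -0.60, IFITM3 by -0.59, OAS3 by -0.57 and DDX60 by -0.52. Without replicate 2 of Okbyeongpung-san at 500 µg/mL 7 genes were called, 3 higher and 4 lower. Okbyeongpung-san and the other extracts lie in different library series, so the extract and the series cannot be told apart in these contrasts.

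The vehicle gives a further reference across library series. With Soshiho-tang at 500 µg/mL, 14 genes were higher than vehicle and 3 lower, 45.9% of the 37, where 43.9% of all genes were called, 22.8% higher and 21.1% lower. These 14 are not the same set as the 14 that rose from 20 to 500 µg/mL. STAT2, ISG15, IFI6 and XAF1 were not called against vehicle, and IFIH1, OASL, HERC5 and HERC6 were called only there. IFIT2 was higher by 1.07, HERC5 by 0.83, MX1 by 0.82, IFIT3 by 0.74, OASL by 0.62, IFI44 by 0.54 and IFIH1, which encodes the RNA sensor MDA5, by 0.54. IRF9 was higher by 0.35 (SE 0.09, edgeR adjusted p = 0.00372), whereas ISG15 (0.09), IFIT1 (0.08), IRF1 (-0.05) and IRF7 (-0.14) were not called. IFITM1 was lower by -0.47, IFITM2 by -0.43 and IFITM3 by -0.40. Of these only IFITM1 was called by DESeq2, and by edgeR without vehicle replicate 1 or 2 or without Soshiho-tang replicate 2 or 3. Without Soshiho-tang replicate 1, IFITM2 was not called. At 20 µg/mL, 2 genes were higher than vehicle (IFI44 by 0.34 and IFIT5 by 0.17) and 2 lower (IFITM1 by -0.39 and STAT2), where 11.3% of all genes were higher, 10.5% lower and 21.8% called.

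With Yijin-tang at 500 µg/mL, 13 genes were higher than vehicle (35.1%) and 0 lower, where 16% of all genes were higher, 15.2% lower and 31.3% called. HERC5 was higher by 0.97, OAS1 by 0.93, OASL by 0.85, ISG20 by 0.63, IFIT2 by 0.60, MX2 by 0.53, DDX60 by 0.52 and MX1 by 0.41. OAS1, ISG20, MX1 and IFIT3 overlapped between these groups. The count was 8 without vehicle replicate 2, 7 without vehicle replicate 3, 6 without Yijin-tang replicate 2 and 8 without Yijin-tang replicate 3. MX1 and IFI44 were already higher than vehicle at 20 µg/mL, by 0.42 and 0.38, the 2 genes called there, where 10.6% of all genes were higher, 9.2% lower and 19.8% called. Without vehicle replicate 2 or 3, 1 gene was called at 20 µg/mL.

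With Okbyeongpung-san at 500 µg/mL, 4 genes were higher than vehicle and 2 lower, 16.2%, where 13.3% of all genes were higher, 11.4% lower and 24.7% called. MX1 was higher by 1.44 (SE 0.15, edgeR adjusted p = 0.000163), IFI44 by 1.11, SAMD9L by 0.74 and IFIT5 by 0.39, and OAS3 was lower by -0.59 and PARP9 by -0.47. Without vehicle replicate 2, or without Okbyeongpung-san replicate 2, the 4 genes IFI44, MX1, OAS3 and SAMD9L were called, and without Okbyeongpung-san replicate 3, 10 genes were. At 20 µg/mL IFI44 alone was higher than vehicle (log2 0.43, SE 0.09, edgeR adjusted p = 0.0408), where 1.18% of all genes were higher, 1.06% lower and 2.24% called. With the title batch as a block 14 genes were called in this contrast, and with the replicate number as a block 0 were. The share of all genes called with these blocks is not given here, so these counts are not a result about the 37 genes. All vehicle libraries carry batch E in their titles, so batch D has no vehicle of its own. The call of IFI44 was lost without any 1 of the 5 libraries, with 0 genes called. IFI44 was the only 1 of the 37 called against vehicle at 20 µg/mL of each of the 3 extracts; the vehicle held 31.5, 32.3 and 30 CPM of it and no extract library held less than 35.65 CPM. These comparisons share the vehicle libraries.

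Soyo-san, with 1 library a dose, is described without a test. MX1 went from 9.41 CPM at 20 µg/mL to 12.4 at 100 and 15.1 at 500 µg/mL, and STAT2 from 34.4 to 34.3 and 40.5 CPM. On the log2 scale of CPM + 0.1, 4 of the 37 genes were higher by more than 0.5 at 500 than at 20 µg/mL and 0 were lower by as much, where 5.56% of all genes were higher and 5.55% lower by that size. These 4 were ISG20 (0.82), MX1 (0.68), RSAD2 (0.58) and IFIH1 (0.55). The median of the 37 ratios was 0.23, against 0.002 over all genes, and 33 of the 37 were above 0. The share of all genes above 0 was not computed. IFIT1 had 12.8, 14.8 and 15.3 CPM at the 3 doses and IFIT2 8.32, 10.3 and 11.7 CPM. Here IFIT1, OAS3 and PARP9 did not stand below 0, with ratios of 0.26, 0.11 and 0.22, respectively.

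The rest of the pathway was read from lists of its parts. Of 9 interferon genes, IFNE alone was high enough to test in the fits of each extract. IFNB1, the first interferon most cells make, reached at most 1 count, in 2 of 30 libraries, IFNA1 reached at most 10 counts, and IFNA2, IFNG, IFNL2 and IFNL3 had 0 counts in all libraries, which allows up to 3 counts a library. With Soshiho-tang IFNE, an interferon of epithelia, differed by -0.17 and was not called. It rose with Okbyeongpung-san from 3 to 5.36 CPM (log2 0.84, SE 0.15, edgeR adjusted p = 0.00674). Of 4 chemokines that interferon induces, CXCL10 reached at most 1 count, in 4 libraries, and CXCL9 0. CXCL11 reached at most 7 counts, in 19 libraries, whereas CCL5 was counted in all 30, at 0.735 to 2.62 CPM. The 1 gene of this list that was tested was not called from 20 to 500 µg/mL of Soshiho-tang, Yijin-tang or Okbyeongpung-san. The receptor chains IFNAR1 and IFNAR2 were present at 102.7 to 131 and 22.4 to 27.5 CPM, and JAK1 and TYK2 at 140.3 to 181.5 and 57.8 to 68 CPM.

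The counts below for Soshiho-tang from 20 to 500 µg/mL stand beside 14.6% of all genes higher, 14.2% lower and 28.9% called. With it, 1 of 6 receptor genes rose, IFNLR1 of the interferon lambda receptor (log2 0.54, SE 0.19, edgeR adjusted p = 0.0332). Of 5 JAK-STAT transducers 1 fell, STAT3 (log2 -0.28, SE 0.04, edgeR adjusted p = 1.06e-05). Of 11 sensing genes 1 fell, the adaptor STING1 (log2 -0.35, SE 0.07, edgeR adjusted p = 0.000355). A list of negative regulators, which also holds the ISG15-activating enzyme UBA7, had 6 genes tested. Of these 1 fell, SOCS3, a feedback inhibitor of cytokine receptors (log2 -0.31, SE 0.06, edgeR adjusted p = 0.00041). Of 25 other interferon-induced effectors, 8 rose and 3 fell, with a median of 0.15 against 0.01 for all genes. TRIM25, a ubiquitin ligase of RNA sensing, rose from 77.5 to 132 CPM (log2 0.77, SE 0.05, edgeR adjusted p = 1.67e-10) and APOL6 by 0.59. TNFSF10, which encodes the death ligand TRAIL, fell from 1.26 to 0.489 CPM (log2 -1.34, SE 0.28, edgeR adjusted p = 0.000834). Of 19 genes of interferon-gamma response and antigen presentation, 3 rose and 2 fell, among them the tRNA synthetase WARS1 (0.53) and the guanylate-binding proteins GBP2 (-0.55) and GBP1 (-0.31).

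With Okbyeongpung-san over the same doses, where 5.21% of all genes rose, 5.1% fell and 10.3% were called, STAT3 fell by 0.36 on the log2 scale, and TLR3, the endosomal sensor of double-stranded RNA, was 1 of 11 sensing genes to fall (log2 -0.75, SE 0.19, edgeR adjusted p = 0.0355). Of 6 genes tested from the list of negative regulators and UBA7, 2 fell, SOCS1 (log2 -0.90) and PIAS1 (log2 -0.34). Of the 25 other effectors 1 rose and 2 fell: APOL1 rose by 0.78 (SE 0.09, edgeR adjusted p = 0.000692), TNFSF10 changed by -1.56 and PML by -0.30. Of the 19 genes of antigen presentation GBP2 alone fell, by 0.53 on the log2 scale. With Yijin-tang, where 2.7% of all genes rose, 2.94% fell and 5.64% were called, 0 of the 25 other effectors were called by edgeR; IFNGR1 rose by 0.16 as 1 of 6 receptor genes, and of 19 genes of antigen presentation 2 rose (CIITA by 0.32 and TAP2 by 0.16) and GBP1 fell by 0.21 on the log2 scale.

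Markers of other cells moved with dose too. Of 6 leukocyte markers 3 could be tested with Soshiho-tang: PTPRC fell from 12.5 to 4.5 CPM (log2 -1.47) and CD68 rose from 143 to 211 CPM (log2 0.56). PTPRC also fell with Yijin-tang (log2 -0.49) and Okbyeongpung-san (log2 -0.85). CD14, ITGAM, LILRA4 and CD3E never exceeded 0.476 CPM, and the list's sum, nearly all CD68, ran from 135.4 to 192.1 CPM at 20 µg/mL and from 198.5 to 229.4 CPM at 500 µg/mL of Soshiho-tang. The 3 endothelial markers summed to at most 1.1 CPM in any library. Of the glial markers, VIM fell by 0.22 and SLC1A3 by 0.53 on the log2 scale and NES rose by 0.45 with Soshiho-tang, and NES rose by 1.02 with Okbyeongpung-san. The part of these markers in the changes of the 37 genes was not tested.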

How the data were processed

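RNA from the 30 libraries had been made with a directional kit and read in pairs, per the labels' protocols. Per the submitters' processing notes, the tools included Trim Galore 0.6.5, FastQC 0.11.9, STAR 2.7.3a and RSEM 1.3.3. The authors deposited RSEM expected counts per gene and library in 1 table, and the strand setting used is not given in the sources used here. Its 30 blank columns were not used. Of the 60675 entries, 57055 matched GENCODE v29 by identifier.

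The expected counts were rounded to whole numbers, and edgeR 4.0.16 (limma 3.58.1, R 4.3.3) was run with TMM factors, filterByExpr at a count minimum of 10 and a total minimum of 15, the quasi-likelihood test and Benjamini-Hochberg adjustment over all genes. Soshiho-tang, Yijin-tang and vehicle shared 1 fit of 16872 genes, Okbyeongpung-san and vehicle another of 16643, and contrasts of Okbyeongpung-san with the other extracts a fit of 27 libraries and 17396 genes. On simulated counts, 99.5% of 200 changes of log2 1 were recovered for Soshiho-tang 500 against 20 µg/mL (16695 genes) and 93.5% for Okbyeongpung-san (16418 genes). Unchanged genes called in error numbered 10 and 9, respectively. Genes at low CPM were given no change, and smaller changes, such as most of those reported here, were not simulated. Of 24 replicate pairs none agreed within sampling noise (chi-square per degree of freedom from 3.21 to 39.47).

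The members and the pathway and marker lists were chosen with earlier results of these data known. Named in each comparison were up to 10 called members with the largest change and at least 1 CPM in the higher group, always STAT2, IRF9, IRF1, IRF7, ISG15, IFIT1 and MX1, up to 3 called genes of a pathway list, and IFNB1 and CXCL10. A further gene of the rule is not reported here. Members named outside this rule were chosen after their values were seen. Replicate numbers did not pair the Soshiho-tang and Yijin-tang libraries, and within Okbyeongpung-san they coincide with the title batch. Alternatives were DESeq2 1.42.0, RLE factors, no count filter, fits of only the groups compared, a replicate block and leaving out each library.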

Additional observations from a re-analysis of the deposited data

Results flagged for a closer look

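For 5 of the 37 genes, the change from 20 to 500 µg/mL differed between Soshiho-tang and Yijin-tang by a test of the difference itself, an interaction contrast in edgeR. That is 13.5% of the 37, where 13.6% of all genes were called, 6.63% with a larger change and 6.99% with a smaller. The difference in log2 change, Soshiho-tang minus Yijin-tang, was 0.61 for MX1 (SE 0.18, edgeR adjusted p = 0.0219) and 0.54 for IFIT3 (SE 0.16, edgeR adjusted p = 0.0236). It was 0.4 for IRF9 (SE 0.13, edgeR adjusted p = 0.0392), 0.37 for SAMD9L (SE 0.1, edgeR adjusted p = 0.0118) and 0.36 for STAT2 (SE 0.1, edgeR adjusted p = 0.014). In each of the 5 genes the 3 Soshiho-tang libraries at 500 µg/mL lay above the 3 at 20 µg/mL, whereas the Yijin-tang groups overlapped. With Soshiho-tang, 22.3% of all genes tested were separated in this way. With Yijin-tang 11.1% were separated upward and 10.8% downward, so overlap was the usual case. The 5 genes were picked by a test on these same libraries, so the separation adds no support to it.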

How the results depend on the processing

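None of the genes called from 20 to 500 µg/mL, or between Soshiho-tang and Yijin-tang at 500 µg/mL, changed direction under the alternatives run, and the directions of other values were not followed. The cause of each change in a count below was not tested. The share of all genes called in each setting is not given beside these counts. They therefore do not tell whether a setting moved the 37 genes apart from all genes. From 20 to 500 µg/mL of Yijin-tang, the number of the 37 genes called was 1 in the fit reported, 2 by DESeq2, 4 without the count filter and 0 with only the groups compared. For Okbyeongpung-san from 20 to 500 µg/mL it was 6, against 14 without the filter, 12 in the fit of 27 libraries and 15 with the replicate block by title batch, which was chosen after seeing the data. For the contrast of 500 µg/mL Okbyeongpung-san with vehicle it was 6, against 12 without the filter, 10 with only the groups compared, 12 in the fit of 27 libraries and 14 with the title-batch block. For the contrast of 20 µg/mL Okbyeongpung-san with vehicle it was 1, against 3 by DESeq2, 7 without the filter, 2 with only the groups compared, 0 with the replicate block, 4 in the fit of 27 libraries and 14 with the title-batch block. For Yijin-tang at 20 µg/mL against vehicle it was 2, against 5 without the filter. Between Soshiho-tang and Yijin-tang it was 0, against 1 without the filter at 100 µg/mL, and 1 by DESeq2 and 3 without the filter at 20 µg/mL. Between Okbyeongpung-san and Yijin-tang at 500 µg/mL it was 13, against 7 with only the groups compared.

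Leaving out 1 library at a time gave 10 to 14 called genes for Soshiho-tang 500 against 20 µg/mL, 0 to 2 for Yijin-tang and 4 to 10 for Okbyeongpung-san. For 100 against 20 µg/mL it gave 0 for each of these extracts. Against vehicle it gave 15 to 18 for Soshiho-tang at 500 µg/mL and 3 to 4 at 20 µg/mL, 6 to 12 for Yijin-tang at 500 µg/mL and 1 to 3 at 20 µg/mL, and 4 to 10 for Okbyeongpung-san at 500 µg/mL and 0 at 20 µg/mL. Between Soshiho-tang and Yijin-tang it gave 7 to 10 at 500 µg/mL, 0 to 1 at 100 µg/mL and 0 to 1 at 20 µg/mL, and 2 to 6 for the difference of their dose changes. For Okbyeongpung-san at 500 µg/mL it gave 9 to 15 against Soshiho-tang and 7 to 16 against Yijin-tang. The share of all genes called in each of these fits is not given beside these ranges. The ranges therefore do not tell whether leaving out a library moved the interferon-stimulated genes apart from all genes.

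With the replicate number as a block, 16 genes were called for Soshiho-tang 500 against 20 µg/mL, 1 for Yijin-tang and 7 for Okbyeongpung-san. Between Soshiho-tang and Yijin-tang, 13 were called at 500 µg/mL, and 5 for the difference of their dose changes. The share of all genes called with this block is not given here. These counts therefore do not tell whether the block moved the interferon-stimulated genes apart from all genes. The deviations of same-numbered Soshiho-tang and Yijin-tang libraries correlated at -0.16 to 0.09 across genes, so the numbers do not pair these samples. In Okbyeongpung-san, same-numbered libraries correlated at 0.1 for 500 and 20 µg/mL and at 0.28 for 100 and 20 µg/mL.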
